A study of Caenorhabditis elegans with 2 samples.

Results

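The genes described here encode 10 RNA-binding proteins that control translation in the germ line and early embryo of Caenorhabditis elegans: nos-1, nos-2, nos-3, gld-1, oma-1, oma-2, mex-5, mex-6, pos-1 and car-1. They were taken from a fixed list of gene names, a rule that uses no measured value although earlier results of these data were known when it was drawn up, and are 10 of the 19973 protein-coding genes of the WBcel235 annotation. The measurement was chromatin immunoprecipitation sequencing of LIN-13, a zinc-finger protein encoded by a synMuv B gene, in 2 biological replicates that formed 1 group with no second condition. The animals were whole L4 larvae, males and females pooled and of unstated age, of strain OP49. This strain carries the unc119(ed3) allele and the array wgIs49, which brings a lin-13 transgene fused to TY1, EGFP and FLAG together with an unc119 rescue. The tagged protein was therefore present beside the product of the endogenous lin-13 gene, and both replicates shared this background. Germ-line and somatic nuclei were not separated, so a weaker peak and a peak in fewer cells cannot be told apart. Peak lists hold no expression values, so no tissue marker could be checked.

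Proteins of this kind bind the 3' untranslated regions (UTRs) of target mRNAs and decide when and where those mRNAs are translated. GLD-1, a protein with a KH RNA-binding domain, represses many mRNAs in meiotic germ cells, and the Nanos family proteins NOS-1, NOS-2 and NOS-3 act in germ cell survival and in the switch from sperm to oocytes. OMA-1 and OMA-2 act redundantly in oocyte maturation, MEX-5 and MEX-6 establish differences along the axis of the zygote, and POS-1 acts in posterior blastomeres; all of these carry CCCH zinc fingers. CAR-1, an Lsm-domain protein of germ granules, is associated with stored mRNA and acts in cytokinesis.

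LIN-13 peaks lay upstream of nos-3 (54 bp), car-1 (317 bp) and oma-2 (448 bp), and a further peak lay between oma-1 and its downstream neighbour spr-2. These were the 4 of 10 genes with the summit of a peak that passed the irreproducible discovery rate (IDR) step in the gene or within 2 kb of it, where 15.8% of all protein-coding genes had one. A summit is the position of highest signal in a peak. Counting only IDR summits that fell within 500 bp of a 5' end, 3 of the 10 genes (oma-2, nos-3 and car-1) had one, against 6.99% of protein-coding genes. With the distance reduced to 200 bp, nos-3 alone was left, 1 of 10 genes against 3.43%. At 500 bp, leaving out peaks shared by 5' ends of several protein-coding genes, 2 of 10 (oma-2 and car-1) remained, against 4.07%. The replicates were pooled before the peaks were called and there was 1 group, so these counts are descriptions without a test.

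A longer, relaxed list of 30000 pooled peaks showed weaker signal at most of the other genes, as it did at most protein-coding genes. In the gene or within 2 kb, 8 of the 10 genes had a relaxed summit, every one but nos-2 and mex-6, against 67.2% of protein-coding genes. Within 500 bp of a 5' end the count was 7 of 10 (nos-1, gld-1, oma-1 and pos-1 besides the genes with an IDR summit there), against 39% of protein-coding genes. The 10 genes and their 2 kb flanks held 36 pooled relaxed summits in all, from 0 at nos-2 and mex-6 to 7 at car-1. The median gene of the 10 had 4.5 summits, or 0.628 per kb of the gene and its flanks, while the median protein-coding gene had 2 summits, or 0.221 per kb. The relaxed lists were made as input for the IDR step and reach far down in signal, so membership in them alone says little.

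**Figure D1:**
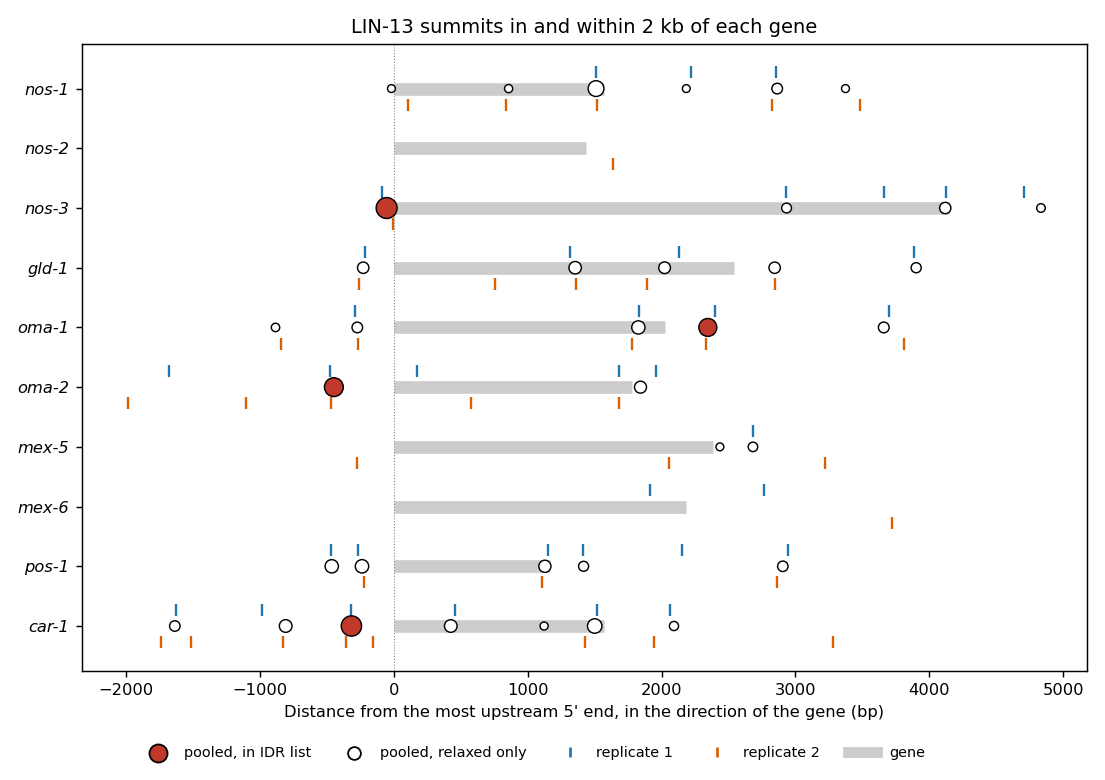
Pooled and replicate LIN-13 summits around each of the 10 genes, drawn in the direction of the gene, with distance from the most upstream annotated 5' end on the x axis (bp). Circles are pooled summits with an area that grows with signal value, filled where the peak was in the IDR list, and ticks are summits of replicate 1 (above) and replicate 2 (below). The filled circles of oma-2, nos-3 and car-1 lie upstream of the gene and that of oma-1 lies beyond its 3' end, and nos-2 and mex-6 have no circle.

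The sequences under the upstream summits of nos-3, oma-1 and oma-2 held the same short run of bases, which is why they are shown. They are read 5' to 3' on the plus strand of WBcel235 (build ce11), the strand of all 3 genes, and the capitals mark the run. The nos-3 sequence is chrII:9746201-9746301, the oma-1 sequence is chrIV:8888661-8888761, upstream of the oma-1 5' end, and the oma-2 sequence is chrV:8028959-8029059. A last sequence, chrIV:8891261-8891381, lies under the stronger oma-1 peak on the 3' side of the gene and is shown for contrast, with the summit base in capitals.

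nos-3: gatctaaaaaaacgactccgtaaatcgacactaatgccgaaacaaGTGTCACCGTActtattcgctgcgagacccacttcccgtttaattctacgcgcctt
oma-1: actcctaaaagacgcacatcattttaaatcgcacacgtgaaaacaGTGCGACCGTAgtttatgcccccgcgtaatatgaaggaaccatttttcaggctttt
oma-2: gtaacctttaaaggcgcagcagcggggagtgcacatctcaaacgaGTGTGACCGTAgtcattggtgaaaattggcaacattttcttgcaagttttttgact
oma-1 3' side: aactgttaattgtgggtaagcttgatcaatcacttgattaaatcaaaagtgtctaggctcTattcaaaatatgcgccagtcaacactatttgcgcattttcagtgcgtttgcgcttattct

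Aligned on the 6 letters ACCGTA, the upstream sequences of nos-3, oma-1 and oma-2 shared GTGNNACCGTA, where N stands for any base. The middle of the run was 11 bp from the pooled summit at nos-3, 8 bp at oma-1 and 18 bp at oma-2, and in all 3 it pointed in the direction of the gene. The stronger oma-1 peak on the 3' side did not hold it within 100 bp of its summit. Nor did the upstream IDR peak of car-1 or the relaxed upstream summits of nos-1, gld-1 and pos-1. The 6 letters ACCGTA alone were within 100 bp of 6 of the 36 pooled summits (16.7%), the upstream summit of gld-1 among them. They were at 9.76% of nuclear IDR summits, 5.83% of the other relaxed summits and 5.58% of windows upstream of 5' ends. The 11-letter run was noticed in the sequences of nos-3, oma-1 and oma-2 after their values were seen. Its presence at the 3 genes is how it was found and counts as no result. What it was not chosen on is its occurrence elsewhere.

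Over the nuclear genome as a whole, most copies of the same 11 letters were away from IDR summits. Those that were close to one were all near 5' ends. Leaving out the 4 IDR peaks of the regulator genes, 30 of 2117 nuclear IDR summits (1.42%) had the run on either strand within 100 bp. In windows of the same 201 bp it was present at 0.122% of the 27855 pooled relaxed summits outside the IDR list and in 0.154% of 29304 windows immediately upstream of protein-coding 5' ends. The nuclear genome held 358 copies. Of the 100 copies within 500 bp of a protein-coding 5' end, 32 (32%) were within 100 bp of an IDR summit, where 0.983% of the bases near 5' ends were that close to one. Of the 258 copies farther from 5' ends, 0 were within 100 bp of an IDR summit. Over all nuclear bases the share that close was 0.425%, and for bases far from 5' ends it was not computed. At so low a share, 0 of 258 says little about the run away from 5' ends. The 358 and the 100 include the copies of nos-3, oma-1 and oma-2, from which the run was found. The 32 include those of nos-3 and oma-2, and the 0.122% includes the oma-1 summit. Only the share of 1.42% leaves these genes out by design.

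The copies at IDR summits sat close to the summit itself. Their median distance from it was 21 bp and 17 of the 32 were within 25 bp. The direction seen at nos-3, oma-1 and oma-2 was not general, since 18 of the 32 copies lay on the strand of the nearest gene. Of all 358 copies, 30 were within 100 bp of 1 of the 2141 highest peaks of replicate 1, 30 of those of replicate 2, and 25 of both. The 32 copies at IDR summits and the counts for each replicate include those of nos-3 and oma-2, whereas the oma-1 copy was at a relaxed summit only. A match to these letters is a description, and no factor was assigned to it.

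**Figure D2:**
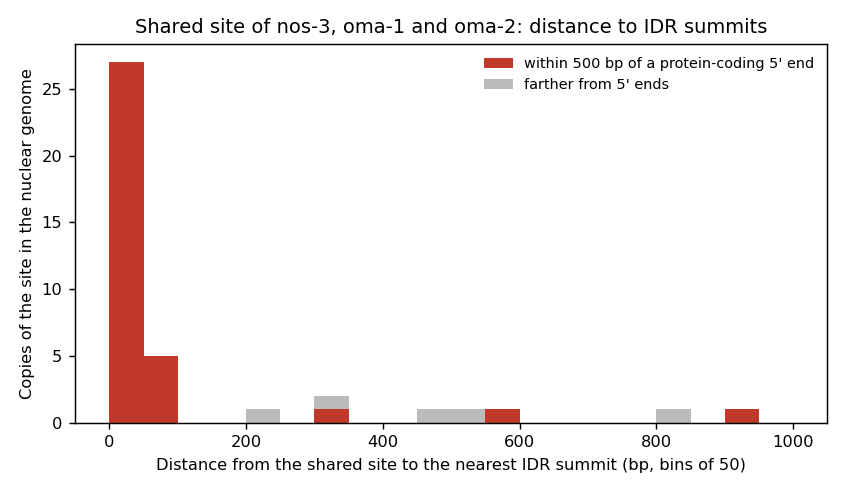
Copies of the 11-letter run shared by nos-3, oma-1 and oma-2 in the nuclear genome, counted by distance to the nearest IDR summit (bins of 50 bp, copies farther than the axis not drawn). Copies within 500 bp of a protein-coding 5' end are red and the others grey. The 32 copies within 100 bp of an IDR summit are all red and include those of nos-3 and oma-2, from which the run was found.

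Among the Nanos family genes, nos-3 had a strong upstream peak, nos-1 had its main signal at the other end of the gene and nos-2 had almost none. The nos-3 peak (chrII:9746094-9746429) was intergenic; its summit was 54 bp from the most upstream nos-3 5' end and 184 bp from that of the divergent gene Y53C12B.1, outside both genes, so it cannot be given to either gene. Its pooled signal value was 61.0, rank 898 of the 30000 pooled peaks, and 58.1% of IDR peaks were lower. The nearest replicate summits had signal values of 42.0 in replicate 1 and 27.1 in replicate 2. They ranked 589 and 1050, so the peak was among the strongest 2141 of each replicate. The summit base was soft-masked, that is, annotated as repeat sequence in the genome used here.

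At nos-1 the highest pooled peak (chrII:10951487-10951822) had its summit in the gene's own 3' UTR, 63 bp from the 3' end. Its signal value was 34.7 and its rank 2789, below the IDR list, which ended at 40.1. The nearest summits had signal values of 16.6 in replicate 1 and 13.1 in replicate 2, with ranks of 4641 and 4479. The summit was also 382 bp downstream of an internal annotated 5' end of gst-5, a glutathione S-transferase gene on the other strand, and beyond the gst-5 3' end. At the 5' end of nos-1 itself a single relaxed summit was found 18 bp upstream, with a signal value of 8.59 and rank 28131, close to the lowest of the list. It had a summit of replicate 2 within 250 bp (signal value 6.62) and none of replicate 1.

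Around nos-2 (chrII:7065618-7067051) the pooled list held no summit within 2 kb. The only summit in reach was 1 of replicate 2, in a coding exon of him-14 and 206 bp beyond the 3' end of nos-2, with a signal value of 5.45 and rank 20320. Around nos-2 a summit was therefore seen in 1 replicate only, outside the gene and at less than the median of 6.62 of that replicate's list. The gene lies within him-14, which is on the other strand.

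The paired oocyte genes oma-1 and oma-2 had peaks of different strength at their 5' ends although both held the shared run. The oma-2 peak (chrV:8028823-8029158) was intergenic, 448 bp upstream of the 5' end, with a pooled signal value of 49.5 and rank 1443. Its replicate values were 25.8 and 24.9, ranks 1896 and 1253, and 32.6% of IDR peaks were lower. At the oma-1 5' end the pooled summit (chrIV:8888535-8888870) was 273 bp upstream and reached 15.7, rank 11220. The replicates were unlike each other there, with 5.73 in replicate 1 (rank 28620) and 12.4 in replicate 2 (rank 4943). The oma-2 value was 3.15 times that of oma-1 in the pooled list, 4.5 times in replicate 1 and 2.01 times in replicate 2, so the order was the same in each list but its size was not.

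The highest peak in reach of oma-1 (chrIV:8891153-8891488) was intergenic on the other side of the gene. Its summit lay 322 bp beyond the oma-1 3' end and 141 bp upstream of the 5' end of spr-2, a gene of the nucleosome assembly protein family. The pooled signal value was 44.9, rank 1741, and 18.7% of IDR peaks were lower. The replicate values of 21.1 and 18.3 ranked 2831 and 2347, outside the strongest 2141 of both. Of nuclear IDR peaks, 59.4% were inside that limit in both replicates. By distance the peak is at the 5' end of spr-2 and not at that of oma-1.

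The polarity genes mex-5 and mex-6 were at the low end. At mex-5 the 2 pooled summits had signal values of 12.5 (rank 16457) and 8.56 (rank 28227), lay 301 and 54 bp beyond the 3' end, and were both within the neighbouring gene W02A2.8. Both were matched by the same summit of replicate 1, with a signal value of 11.9, and by none of replicate 2. Replicate 2 had its highest summit in the mex-5 3' UTR, 328 bp before the 3' end, with a signal value of 10.1 and rank 7228. It also had a summit 275 bp upstream of mex-5 and 255 bp upstream of rec-8, a meiotic cohesin gene, with a signal value of 7.56 and rank 12037. The 5' end of mex-5 thus had a summit in 1 replicate and none in the pooled list.

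Around mex-6 (chrII:9524174-9526359) no pooled summit was found. Replicate 1 had summits of 7.69 (rank 19100), 579 bp beyond the 3' end, and 6.35 (rank 25083) in the mex-6 3' UTR, and replicate 2 had 1 of 4.09 (rank 29246), 1535 bp beyond the gene. No summit of 1 replicate had a partner in the other.

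The posterior determinant gene pos-1 had a pair of pooled summits upstream. The nearer (chrV:8413680-8414015) was 238 bp from the 5' end with a signal value of 24.9 and rank 5093. The farther (chrV:8413454-8413789) was 464 bp away with 24.6 and rank 5201. Both were also upstream of vha-18, a vacuolar proton pump subunit gene on the other strand, at 366 and 140 bp, and both were on soft-masked bases. Replicate 1 had separate summits for them, with values of 16.6 and 18.5, while a single summit of replicate 2 with a value of 10.3 was nearest to both. Neither was near the IDR limit.

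At gld-1, on chromosome I, signal was modest and spread along the gene and beyond it. Of the 5 pooled summits in reach, those of ranks 9022 and 13227 lay 303 and 1360 bp beyond the 3' end. Each was within 500 bp of a neighbour's 5' end. The highest of the 5 was in a coding exon of gld-1, with a signal value of 21.5 and rank 6581. The replicate values there were 13.6 and 9.73. Another was in the gene's own 3' UTR with a signal value of 19.0, and 1 was 229 bp upstream of the 5' end with 18.0 and rank 8952. The upstream summit had values of 7.24 in replicate 1 and 8.06 in replicate 2, so both replicates placed weak signal at the gld-1 promoter.

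The car-1 gene had the most pooled summits in the gene or within 2 kb, 7, with the strongest upstream. This peak (chrI:12903985-12904320) was intergenic, 317 bp before the car-1 5' end, with no other protein-coding 5' end within 500 bp. The pooled signal value was 57.5, rank 1036, and 51.6% of IDR peaks were lower. The replicate values of 33.8 and 20.9 ranked 1050 and 1790, inside the strongest 2141 of both. The second highest car-1 summit was in its own 3' UTR, 70 bp from the 3' end, with 29.2 and rank 3802, and it was seen at 21.5 in replicate 1 and 19.8 in replicate 2. Some of the weaker summits were at neighbours. That of rank 6164 lay 808 bp upstream of car-1 and 213 bp upstream of a neighbour's 5' end. That of rank 18147 was in an exon of another gene.

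**Figure D3:**
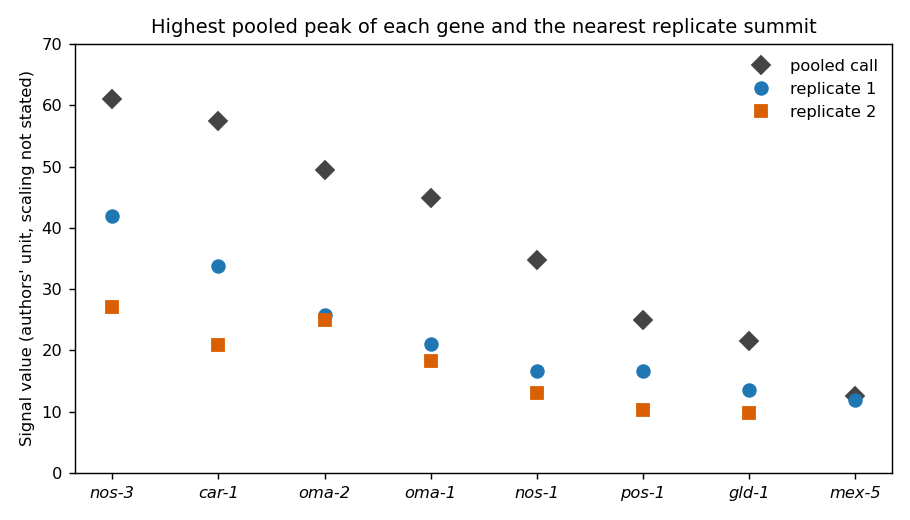
Signal value (the authors' unit, scaling not stated) of the highest pooled peak of each gene with a pooled summit, and of the nearest replicate summit within 250 bp. Diamonds are the pooled call, circles replicate 1 and squares replicate 2. Values of nos-3 (61.0) and car-1 (57.5) are the highest, and mex-5 has no square because replicate 2 had no summit there.

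The regulator genes' peaks were matched in the replicates somewhat more often than relaxed peaks as a whole, a difference that was not tested. The 36 pooled summits include the 4 IDR peaks, and the shares were not compared at equal signal value. Of the 36 pooled summits, 30 (83.3%) had a summit of replicate 1 within 250 bp and 26 (72.2%) had 1 of replicate 2, where 73.9% and 66.0% of all 29976 nuclear pooled summits had one. Both replicates matched 21 of the 36 (58.3%, against 47.4%), and 1 had neither (2.78%, against 7.51%). Where both were present, the value in replicate 1 was a median of 1.4 times that in replicate 2, with a range from 0.462 to 2.38, and was the higher in 16 of 21. Over the 2113 nuclear IDR peaks with both, the median ratio was 1.29. At the 4 IDR peaks the ratio was 1.62 at car-1, 1.55 at nos-3, 1.15 at oma-1 and 1.04 at oma-2.

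Placed among all protein-coding genes by the highest pooled peak in reach, the 10 genes ran from near the top to no summit at all. A lower value was found for 92.1% of genes than for nos-3, 91.1% than for car-1, 88.5% than for oma-2 and 86.5% than for oma-1. The share was 80.6% for nos-1, 70.6% for pos-1, 66.0% for gld-1 and 45.7% for mex-5. The median highest signal value of the 10 genes was 29.8, counting genes with no summit as 0, and that of all protein-coding genes 13.9. No summit in reach was found for 2 of the 10 genes (20%) and for 32.8% of all protein-coding genes.

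**Figure D4:**
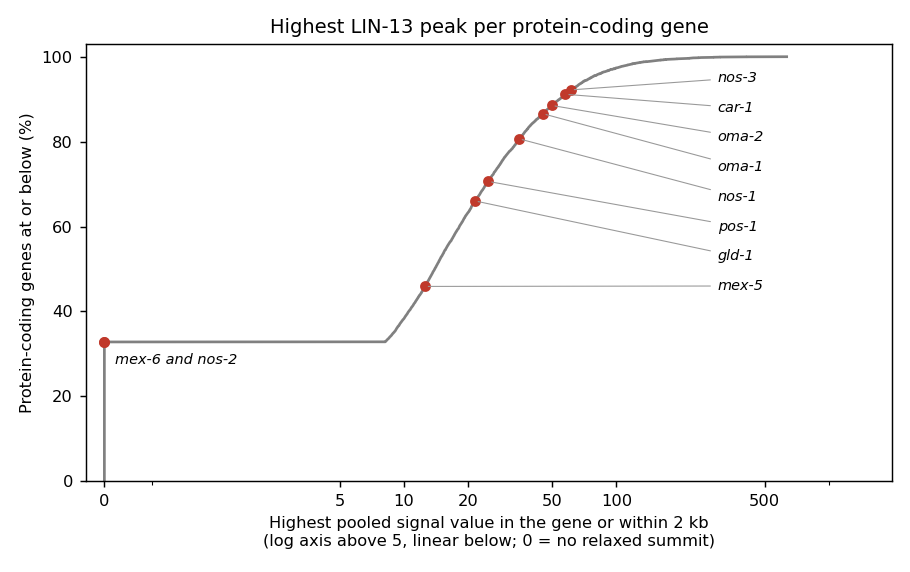
Cumulative share of the 19973 protein-coding genes (y axis, %) by the highest pooled signal value in the gene or within 2 kb (x axis, logarithmic above 5 and linear below, genes without a summit at 0). Points mark the 10 regulator genes. They lie between nos-3, above 92.1% of genes, and nos-2 and mex-6, which are among the 32.8% without a summit.

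Relaxed summits of the regulator genes were frequent at 3' ends, and also over the genes and their 2 kb flanks as a whole. There the median was 0.628 summits per kb, against 0.221 for all protein-coding genes. Whether 3' ends exceeded this general difference was not tested. A pooled relaxed summit within 200 bp of the 3' end was present at 7 of the 10 genes (nos-1, nos-3, oma-1, oma-2, mex-5, pos-1 and car-1), against 19.6% of protein-coding genes. This count was chosen after the positions were seen. The signal values ran from 8.56 at mex-5 to 34.7 at nos-1 (ranks 28227 and 2789), and all 7 had a summit of replicate 1 within 250 bp and 5 had 1 of replicate 2. No regulator gene had an IDR summit there, which 333 protein-coding genes (1.67%) had. Taken from the relaxed list of replicate 2 alone, the count was 4 of 10 against 18.0%, and among the 4282 highest pooled peaks it was 2 of 10 against 3.57%.

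Part of this signal lay near other genes. With summits within 500 bp of another protein-coding gene's 5' end left out, 4 of 10 genes remained (nos-3, oma-1, pos-1 and car-1), against 13.6% of protein-coding genes. At nos-1 the neighbouring 5' end was an internal one of gst-5, at oma-2 that of vars-1, a valyl-tRNA synthetase gene, and at mex-5 an internal one of W02A2.8. By annotation, 8 of the 36 pooled summits (22.2%) were in a 3' UTR, a place that held 6.21% of all nuclear pooled summits, 2.83% of IDR summits and 3.61% of nuclear bases. The 36 summits were taken from in or within 2 kb of a gene, so each window held that gene's 3' end. The shares beside them had no such condition, so the 2 are not alike. The 6 genes with a summit in their own 3' UTR were nos-1, nos-3, gld-1, oma-1, pos-1 and car-1. The remaining 3' UTR summits were in the neighbours spr-2 and W02A2.8. Coding exons held 6 of the 36 (16.7%), against 14.6% of all nuclear pooled summits, and soft-masked bases held 14 (38.9%) against 34.1%.

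GAGA and E2F-like motifs were found at few of these genes' peaks, at shares below those of IDR summits and not far from those of relaxed summits, to which 32 of the 36 belong. Motifs were searched on both strands within 100 bp of the summit. GAGAGAG was at 1 of the 36 pooled summits, the coding-exon summit of gld-1, while 19.8% of nuclear IDR summits, 6.4% of the other relaxed summits and 5.47% of windows upstream of 5' ends held it. An E2F-like motif (GCGGGAA or GCGCGAA) was at 0 of 36, against 8.86%, 4.3% and 3.67% in the same order. A CHR-like motif (TTTGAA or TTCGAA), common in all windows, was at 25 of 36 (69.4%), against 42.9%, 54.0% and 55.4%, and among the 4 IDR peaks only that of oma-1 held it. These searches concern the letters in the windows and not the binding of any factor.

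In a wider set of germline RNA regulators, IDR summits were present at a smaller share of genes than among the 10 and relaxed summits at 5' ends at the same share. The set held 40 other genes of translational control in the germ line and early embryo, all found in the annotation. An IDR summit in the gene or within 2 kb was present at 11 of 40 (27.5%, against 15.8% of protein-coding genes). One within 500 bp of a 5' end was present at 4 of 40 (10%), near the 6.99% of protein-coding genes, namely ntl-2, atx-2, ccr-4 and ccf-1. Leaving out peaks shared by 5' ends of several protein-coding genes, 2 of 40 were left, against 4.07% of protein-coding genes. Relaxed summits were present at 35 of 40 (87.5%, against 67.2%) within reach and 28 of 40 (70%, against 39%) at a 5' end. At 3' ends they were present at 20 of 40 (50%, against 19.6%), and at 15 of 40 (37.5%, against 13.6%) with summits near other 5' ends left out. No difference between the sets was tested.

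The 4 IDR peaks at 5' ends in this set differed widely in strength. The peak upstream of ntl-2, a subunit of the CCR4-NOT deadenylase complex, had a pooled signal value of 116 and rank 191, above any of the 10 genes, with ranks of 214 and 261 in the replicates. Its summit lay 415 bp upstream of the 5' end and 2 bp from a copy of the run shared by nos-3, oma-1 and oma-2. At atx-2, the ataxin homologue that acts with GLD-1, the summit was 51 bp upstream with a signal value of 91.6 and rank 352. The deadenylase subunit genes ccr-4 (41.9, rank 1976) and ccf-1 (40.8, rank 2079) were close to the end of the IDR list and shared their peaks with ZC518.8 and trap-4. Their ranks in replicate 1 were 3543 and 4470, so both were in the strongest 2141 of replicate 2 only. Other subunit genes of the complex had weaker summits at a 5' end, with 22.2 at ntl-3 (rank 6234) and 10.7 at let-711 (rank 20948).

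**Figure D5:**
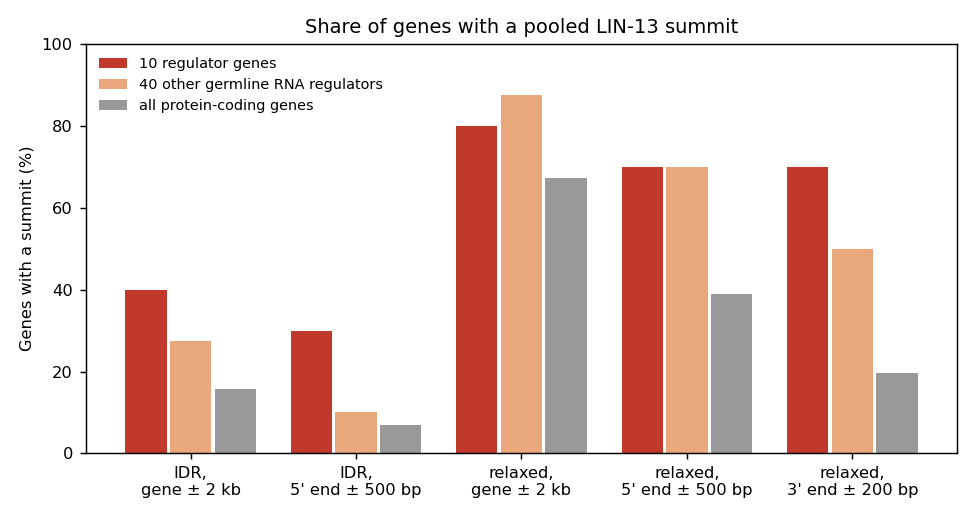
Share of genes (y axis, %) with a pooled LIN-13 summit under 5 rules (x axis) for the 10 regulator genes, the 40 other germline RNA regulators and all 19973 protein-coding genes. Bars are shares without error bars, because the counts come from pooled peaks. At 3' ends in the relaxed list the bars stand at 70%, 50% and 19.6%, a rule chosen after the positions were seen.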

How the data were processed

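The authors deposited narrowPeak lists whose signal value column (here "signal") carries no stated scaling; which aligner and peak caller were run, and in which version, is not given in the sources used here. Per the labels, fragments were 150 to 350 bp, and a control library is named. The files hold no read counts, so depth per replicate is unknown and no counting interval was given. The label for the antibody names LIN-13 and the description names the EGFP fusion. Lists on ce11 were used: IDR (2141 peaks, exactly the 2141 pooled peaks of highest signal), pooled relaxed and 1 relaxed list per replicate (30000 peaks each). Those on ce10 were not used.

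Summits were placed against Ensembl release 115 genes (WBcel235) and coordinates count from 1. A replicate summit was matched to the nearest pooled one within 250 bp. Ranks are within a list. The placing of summits was tested on simulated peaks. With 1 group, no test was run; the share of all protein-coding genes is given with the counts of regulator genes. The regulator genes, the list of 40 other regulators and the motifs were chosen with earlier results of these data known. The text names all 10 genes, genes with a 5' end within 500 bp of their IDR or highest summits, and up to 5 other regulators with the highest IDR peak at a 5' end; him-14, rec-8, vars-1, ntl-3, let-711, mex-3, rpn-5, ife-3, rde-4 and ribosomal protein genes were named after their values were seen. Alternatives were 1 replicate alone, the 1070 or 4282 highest peaks, any base of a peak, other distances, and peaks at 1 gene only. Sequences are from the RefSeq WBcel235 genome. Python 3.11.15, NumPy 2.4.6, pandas 2.3.3 and matplotlib 3.10.9 were used.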

Additional observations from a re-analysis of the deposited data

How the results depend on the processing

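No paired analysis was possible because both replicates belong to 1 group. Of 35 alternatives, 24 left the count within 1.5 times its value and 11 did not; the cause was not tested. The 4 regulator genes with an IDR summit within 2 kb became 2 (nos-3 and car-1) among the 1070 highest peaks, against 9.11% of protein-coding genes, and 0 with summits inside the gene only, against 2.83%. With 1 replicate alone they were 3, since the oma-1 peak was outside the 2141 highest of each. The 3 genes with an IDR summit at a 5' end became 1 within 200 bp, against 3.43%. For the 40 other regulators, the 4 became 2 among the 1070 highest peaks (against 3.95%), 8 among the 4282 highest (against 12.2%), 2 within 200 bp (against 3.43%), 8 within 1 kb (against 9.13%) and 2 with peaks at 1 gene only (against 4.07%). The 7 genes with a relaxed summit at the 3' end became 4 to 6 with 1 replicate, 2 among the 4282 highest peaks and 4 away from other 5' ends; the alternatives for 3' ends and for the shared run were added after seeing the data. The 32 IDR summits with the shared run were 26 within 50 bp and 32 within 200 bp. With depth unknown, what it did to the weak peaks near nos-2, mex-5 and mex-6 could not be measured.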

Other observations

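The run of letters shared by nos-3, oma-1 and oma-2 was frequent at ribosomal protein genes. Of the 30 IDR summits with the run outside the regulator genes, 12 (40%) were within 500 bp of the 5' end of an rpl or rps gene, as at rpl-1, rpl-19 and rps-17, while 57 of all 2121 nuclear IDR summits (2.69%) were. Of the 78 rpl and rps genes, 16 (20.5%) had a copy within 500 bp of a 5' end. This grouping was made after the genes were seen. The share of all protein-coding genes with a copy was not counted. The 2.69% is over IDR summits at any distance from a 5' end, while the copies at IDR summits were all near one. Other genes with the run at an IDR summit were rpn-5, a proteasome subunit gene, ife-3, which encodes a cap-binding translation initiation factor of the eIF4E family, and rde-4, which encodes a double-stranded RNA-binding protein. Among the 40 other germline RNA regulators, mex-3, a KH-domain regulator, also had a copy 359 bp upstream of an internal 5' end, 33 bp from a relaxed summit, and ntl-2 had one 417 bp upstream. None of the 32 copies at IDR summits was on soft-masked bases, where 48 of the 358 copies in the genome (13.4%) were. The 32 were all within 500 bp of a 5' end and the 358 were not, so these shares are not alike. The soft-masked share of copies near 5' ends was not counted.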
